A study of Mus musculus with 12 samples.

Results

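The IFITM family comprises small interferon-induced transmembrane proteins that share the CD225 domain. Its members Ifitm1, Ifitm2, Ifitm3 and Ifitm6 were chosen as the rows of the expression table whose gene symbol equals 1 of these names, and all 4 were found among the 14560 listed genes. RNA was sequenced from 4 populations sorted from the bone marrow of C57BL/6 mice, with 3 libraries each and 12 in all. The series title concerns E-cadherin (Cdh1) in progenitors that enter the basophil and mast cell lineage, and sorting used E-cadherin and the IgE receptor chain FceRIa.

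DN-GMPs were lineage-negative (B220, CD3, Ter119, CD11b and Gr1), c-Kit+, Sca1- and CD34+ CD16/32+ progenitors that lacked both CDH1 and FceRIa at the surface. Pro-BMPs came from the same progenitor gate with CDH1 present and FceRIa absent. Pre-BMPs came from it with FceRIa present and CDH1 given as absent. Basophils lacked B220, CD4, CD8a, Ter119, Sca1 and c-Kit and carried CD49b and FceRIa. All mice were unmanipulated as far as the labels say, no age is given in the sources used here, and the design text gives 3 mice and independent triplicates. Cells were sorted in 2 rounds. Replicate numbers are not said to stand for mice, and the p-values therefore measure the spread between libraries.

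In antiviral defence, IFITM proteins sit in the plasma membrane and in endosomal and lysosomal membranes, where they hinder the fusion of enveloped viruses with the cell. In human cells IFITM1 is found mostly at the surface and IFITM3 mostly in endosomes, to which a sorting signal near its start directs it. Interferons induce most family members, while stem and progenitor cells also express some of them without added interferon.

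All 4 genes lie within 1 cluster on mouse chromosome 7 (build GRCm38, GENCODE M21). Ifitm2 spans chr7:140954837-140955987 on the minus strand and Ifitm1 chr7:140967221-140969825 on the plus strand. Ifitm3 spans chr7:141009586-141010770 and Ifitm6 chr7:141015699-141017924, both on the minus strand. The union of their exons covers 1094 bases for Ifitm1, 655 for Ifitm2, 678 for Ifitm3 and 905 for Ifitm6. Their coding sequences hold 106 codons for Ifitm1, 144 for Ifitm2, 137 for Ifitm3 and 104 for Ifitm6. Aligned coding bases were 78.8% identical between Ifitm2 and Ifitm3, 77.6% between Ifitm1 and each of these, and 60.6% to 65% between Ifitm6 and the others.

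The stretch of 90 aligned coding bases with the most positions identical in all 4 genes is shown because reads from it can be hard to assign to 1 member. In it 69 positions are the same in all 4 genes, and capitals mark the positions that are not. The sequences come from GENCODE M21 on GRCm38.
Ifitm1 coding bases 120 to 209: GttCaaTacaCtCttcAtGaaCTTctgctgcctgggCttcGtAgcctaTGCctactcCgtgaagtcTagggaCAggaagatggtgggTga
Ifitm2 coding bases 183 to 272: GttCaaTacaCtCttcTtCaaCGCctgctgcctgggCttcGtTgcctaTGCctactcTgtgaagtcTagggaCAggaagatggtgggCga
Ifitm3 coding bases 186 to 275: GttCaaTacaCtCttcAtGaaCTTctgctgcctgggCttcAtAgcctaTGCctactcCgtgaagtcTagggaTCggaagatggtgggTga
Ifitm6 coding bases 96 to 185: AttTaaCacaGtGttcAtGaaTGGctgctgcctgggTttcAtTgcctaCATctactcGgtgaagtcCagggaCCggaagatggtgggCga
Of all stretches of 50 exon bases, 5.02% in Ifitm1, 10% in Ifitm3 and 0% in Ifitm6 also occur in another annotated gene. In Ifitm2 the share is 48.5%, shared with Gm45717, with predicted genes such as Gm11951 and with Ifitm3. Exons of Gm45717 overlap 268 of the 655 exon bases of Ifitm2, or 40.9%, on the same strand. Gm45717 is not a row of the table used here, and how the authors' counting treated such reads is not given, so the level of Ifitm2 relative to the other members is uncertain.

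Sequence before the transcription starts is shown to place the interferon response motifs beside the expression values. The sequences are from RefSeq promoters on GRCm38.p6, written in the direction of each gene, without bases that lie in GENCODE exons. Capitals mark matches to the core of the interferon-stimulated response element, searched on both strands.
Ifitm1 chr7:140967826-140968027 plus strand: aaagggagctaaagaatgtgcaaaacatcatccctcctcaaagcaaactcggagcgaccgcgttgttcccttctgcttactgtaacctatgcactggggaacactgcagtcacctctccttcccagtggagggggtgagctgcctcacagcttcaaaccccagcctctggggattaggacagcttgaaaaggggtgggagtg
Ifitm2 chr7:140955988-140956211 minus strand: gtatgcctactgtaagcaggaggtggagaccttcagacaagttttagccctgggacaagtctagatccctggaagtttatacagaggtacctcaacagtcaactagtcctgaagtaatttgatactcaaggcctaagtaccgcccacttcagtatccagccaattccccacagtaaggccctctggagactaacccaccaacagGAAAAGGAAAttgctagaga
Ifitm3 chr7:141010771-141010994 minus strand: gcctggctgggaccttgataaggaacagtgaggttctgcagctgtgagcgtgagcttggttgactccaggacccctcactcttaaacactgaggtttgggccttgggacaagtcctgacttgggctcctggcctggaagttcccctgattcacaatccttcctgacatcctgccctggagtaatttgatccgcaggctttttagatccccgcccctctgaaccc
Ifitm3 chr7:141010716-141010742 minus strand: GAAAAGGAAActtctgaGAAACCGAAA
The window searched ran from 250 bases before to 50 bases after each RefSeq start. Ifitm2 had 1 match, at -46 to -37 from its start. Ifitm3 had 2 matches, in the short run shown last, which covers bases 2 to 28 after its RefSeq start and lies in the first GENCODE exon. Ifitm1 and Ifitm6 had 0 matches to this core in the window. Their RefSeq starts lie inside the GENCODE genes, which begin further upstream, at 140967221 for Ifitm1 and 141017924 for Ifitm6. Sequence around those GENCODE starts was not searched. Among all 32851 RefSeq promoters of the same length, 3.44% held at least 1 match. The gamma-activated site TTCNNNGAA matched once in Ifitm3, where it overlaps the second match to the response element core, and once in Ifitm6 at -10 to -2, and 8.3% of all promoters held it. These matches describe letters and are not evidence of a bound factor.

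Each library held between 29762981 and 42502405 reads on the listed genes. A gene with 0 reads could still be present at up to 3 reads, which is 0.0512 to 0.0745 CPM depending on the library. CPM here are reads per 1000000 of the deposited scaled library size. Mean levels of the sorting markers are given from DN-GMPs through basophils. Kit averaged 261, 303, 463 and 22.4 CPM, Cd34 471, 312, 281 and 31.5 CPM, and Ly6a (Sca1) 3.66, 1.49, 3.17 and 0.955 CPM. Itga2 (CD49b) averaged 0.880, 1.08, 5.08 and 124 CPM and Itgam (CD11b) 5.07, 6.13, 1.94 and 62.5 CPM. For CD16/32, Fcgr3 averaged 293, 353, 353 and 868 CPM and Fcgr2b 103, 134, 130 and 232 CPM. Fcer1a was at 0 in all DN-GMP libraries and averaged 1.56 CPM in the Pro-BMP libraries, 458 CPM in the Pre-BMP and 2862 CPM in the basophil libraries. Cdh1 averaged 0.0911 CPM in DN-GMPs, 42.8 CPM in the Pro-BMP libraries, 147 CPM in the Pre-BMP libraries and 1050 CPM in basophils, so its transcript was present in Pre-BMPs, which are labelled as lacking the surface protein. The summed level of 10 basophil markers ran from 89.8 to 119 CPM in DN-GMPs, 1052 to 1390 CPM in the Pro-BMP libraries, 5057 to 6129 CPM in the Pre-BMP libraries and 40385 to 46095 CPM in basophils.

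Ifitm1, which encodes the member found mostly at the cell surface in human cells, was higher at each later stage than at the one before it with the deposited scaling, and with quantile normalization the last step turned the other way. It stood at 44.8, 39.4 and 35.9 CPM in the DN-GMP libraries, 172, 133 and 224 CPM in Pro-BMPs, 919.9, 879.5 and 967 CPM in Pre-BMPs, and 1221, 1282 and 1276 CPM in basophils. No library of any stage overlapped with a library of another stage. Per kilobase of exon, Ifitm1 ranked at the 89.3rd to 91.5th percentile of listed genes in DN-GMPs, the 97.8th to 99.2nd in Pro-BMPs, and the 99.9th in every Pre-BMP and basophil library.

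**Figure D1:**
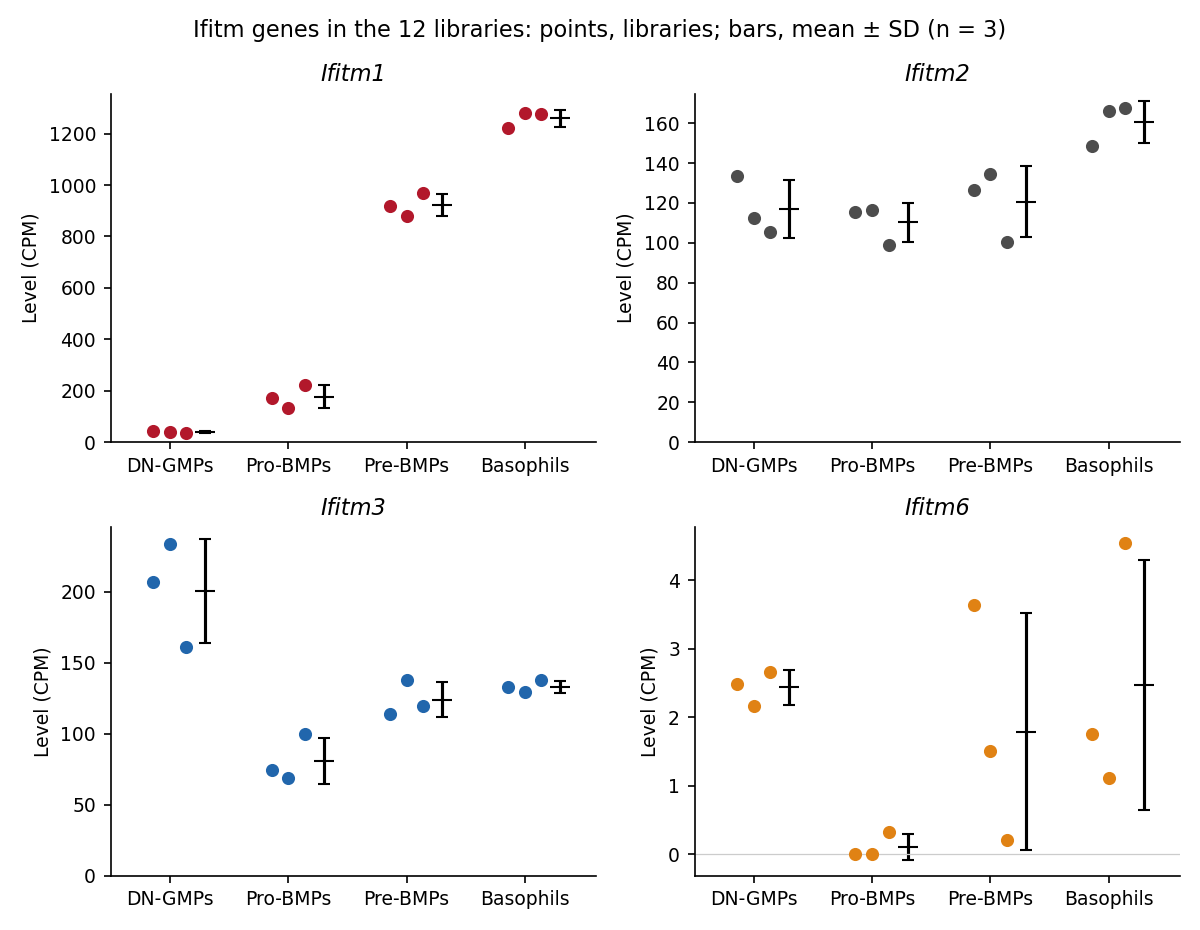
Level of each Ifitm gene in CPM (vertical axis, starting at or below 0) in the 4 populations (horizontal axis), with 1 point per library and the mean ± SD of 3 libraries as bars. Ifitm1 stands at 1221 to 1282 CPM in basophils, Ifitm3 is highest in DN-GMPs at 161 to 233 CPM, Ifitm2 lies between 99.1 and 168 CPM throughout, and Ifitm6 stays under 5 CPM.

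In Pro-BMPs, Ifitm1 averaged 177 ± 45.4 CPM, against 40.0 ± 4.47 CPM in DN-GMPs (SD, n = 3 each). The log2 difference was 2.11 with a standard error (SE) of 0.153 (4.33-fold, limma, Benjamini-Hochberg adjusted p = 1.19e-05). The next step was of similar size, with 922 ± 43.9 CPM in Pre-BMPs, a log2 difference of 2.42 from Pro-BMPs (SE 0.153, 5.34-fold, limma adjusted p = 7.84e-06). In basophils Ifitm1 averaged 1259.7 ± 33.4 CPM, a log2 difference of 4.98 from DN-GMPs (31.6-fold, limma adjusted p = 2.24e-09). These bulk values cannot tell more cells with the transcript apart from more transcript per cell.

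The last step of Ifitm1 was small, with a log2 difference of 0.45 between basophils and Pre-BMPs (SE 0.153, 1.37-fold, limma adjusted p = 0.044). This call was lost when 1 of 8 libraries was left out (DN-GMP replicate 2, Pro-BMP replicate 1 or any Pre-BMP or basophil replicate), with adjusted p up to 0.123 and differences of 0.42 to 0.49. It also depended on scaling. With library totals the difference was 0.13 (limma adjusted p = 0.559) while the median of all genes moved by -0.32, and with quantile normalization it was -0.25 (limma adjusted p = 0.298). Without a mean-variance trend it stayed at 0.45 (limma adjusted p = 0.106). The difference above the median of all genes was 0.55 with the deposited scaling and with library totals, and -0.20 with quantile normalization.

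Markers of eosinophils and mast cells also differed between these stages. The summed level of 9 eosinophil markers was 26.3 to 48.3 CPM in DN-GMPs, 1912 to 3072 CPM in the Pro-BMP libraries, 2286 to 3828 CPM in the Pre-BMP libraries and 352 to 526 CPM in basophils. In Pro-BMPs 8 of the 9 were higher than in DN-GMPs, where 2.00% of all genes were called higher. The 8 were led in level by Prg2 and Epx, which encode granule proteins. Pro-BMP replicate 3 and Pre-BMP replicate 3 had the highest sum of their population and also the most Ifitm1. In both populations replicate 2 had a higher sum than replicate 1 but less Ifitm1, and basophils had more Ifitm1 and a lower sum than Pre-BMPs. Ear1, Ear2, Ear6 and Il5ra were at 0 in DN-GMPs, and Ear6 in basophils. Of 7 mast cell markers 2 were listed, Cma1 and Tpsb2, and their sum was 0.0412 to 0.0745 CPM in DN-GMPs, 0.547 to 1.74 CPM in the Pro-BMP libraries, 82.7 to 289 CPM in the Pre-BMP libraries and 0.0463 to 1.61 CPM in basophils. Tpsb2 was at 0 in DN-GMPs and Pro-BMPs, and the part of either cell type in the Ifitm1 values was not tested.

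Ifitm3, the member most studied for blocking virus entry from endosomes, moved the other way at the first step. It stood at 207, 233 and 161 CPM in the DN-GMP libraries, 74.6, 68.6 and 99.5 CPM in Pro-BMPs, 114, 138 and 119.7 CPM in Pre-BMPs, and 133, 129 and 137 CPM in basophils. Every DN-GMP library was above every library of the other stages, and every Pro-BMP library was below them. The basophil libraries lay within the Pre-BMP range.

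In Pro-BMPs, Ifitm3 averaged 80.9 ± 16.4 CPM, against 200.3 ± 36.6 CPM in DN-GMPs (SD, n = 3 each), a log2 difference of -1.31 (SE 0.164, limma adjusted p = 0.000906). The fold was 0.403. In Pre-BMPs the mean was 124 ± 12.3 CPM, with a log2 difference of 0.63 from Pro-BMPs (SE 0.164, limma adjusted p = 0.0343). That second call was lost without Pro-BMP replicate 1 or 2 or any Pre-BMP replicate, with adjusted p up to 0.13 and differences of 0.52 to 0.69 in those fits, and with 2 populations fitted alone (limma adjusted p = 0.0546) or no mean-variance trend (0.088). Basophils averaged 133 ± 4.22 CPM, and the difference from Pre-BMPs was 0.11 with a 95% interval of -0.25 to 0.47 (limma adjusted p = 0.669). Ifitm3 remained below the DN-GMP level in later stages, by a log2 difference of -0.68 in Pre-BMPs (limma adjusted p = 0.0122) and -0.57 in basophils (limma adjusted p = 0.0133). The basophil call was lost without DN-GMP replicate 2, with a difference of -0.46 (limma adjusted p = 0.0542). Against Pro-BMPs, basophils were 0.74 higher (limma adjusted p = 0.00387).

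A list of 10 monocyte markers moved with Ifitm3 at the first step. Its summed level was 381 to 498 CPM in Pro-BMPs, against 1920 to 2235 CPM in DN-GMPs. In Pro-BMPs 4 of its 10 genes were lower and 0 higher, where 0.536% and 2.00% of all genes were called. Among these markers Fn1 was at 0 in Pro-BMPs and Pre-BMPs and Chil3 was at 0 in DN-GMPs. In Pre-BMPs the sum was 175 to 217 CPM while Ifitm3 was higher than in Pro-BMPs, and in basophils it was 443 to 578 CPM. Most of the basophil sum came from Ccr2 (302 CPM) and Ms4a6c (138 CPM). Ly6c2 averaged 5.59 CPM in basophils and 941.5 CPM in DN-GMPs, Csf1r 4.74 CPM in basophils and 162 CPM in DN-GMPs, and Ly86 0.0231 CPM in basophils and 91.2 CPM in DN-GMPs. The part of these cells in the Ifitm3 values was not tested.

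Ifitm2, the closest relative of Ifitm3 by coding identity, varied least. It stood at 133, 113 and 105 CPM in the DN-GMP libraries, 116, 116 and 99.1 CPM in Pro-BMPs, 127, 135 and 100.4 CPM in Pre-BMPs, and 149, 166 and 168 CPM in basophils. The 3 progenitor populations overlapped, and all basophil libraries were above all others. The means were 117 ± 14.6, 110.4 ± 9.77, 121 ± 17.9 and 161 ± 10.6 CPM in that order (SD, n = 3 each).

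Between Pro-BMPs and DN-GMPs the log2 difference of Ifitm2 was -0.08 (95% interval -0.38 to 0.22, limma adjusted p = 0.857). Between Pre-BMPs and Pro-BMPs it was 0.12 (95% interval -0.18 to 0.42, limma adjusted p = 0.681), and between Pre-BMPs and DN-GMPs 0.04 (95% interval -0.26 to 0.34, limma adjusted p = 0.878). In basophils Ifitm2 was higher than in Pre-BMPs by 0.42 (SE 0.137, 1.34-fold, limma adjusted p = 0.0358), than in Pro-BMPs by 0.54 (limma adjusted p = 0.00795) and than in DN-GMPs by 0.46 (limma adjusted p = 0.0163). With library totals these 3 differences were 0.10, 0.26 and 0.20 and with quantile normalization 0.22, 0.36 and 0.30, none called (limma adjusted p from 0.0549 to 0.604). Above the median of all genes, the difference between basophils and Pre-BMPs was 0.52 with either the deposited scaling or library totals and 0.27 with quantile normalization. The call against Pre-BMPs was lost without Pre-BMP replicate 1 or 3 or basophil replicate 2 or 3, with adjusted p up to 0.129 and differences down to 0.30, and with 2 populations fitted alone (limma adjusted p = 0.061) or no mean-variance trend (0.0808). The call against DN-GMPs was lost without DN-GMP replicate 3, at 0.39 (limma adjusted p = 0.0616).

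Ifitm6, a family member of rodents, was the lowest of the 4. It had 117, 105 and 107 reads in the DN-GMP libraries (2.48, 2.16 and 2.66 CPM), 0, 0 and 19 reads in Pro-BMPs (0, 0 and 0.324 CPM), 179, 79 and 11 reads in Pre-BMPs (3.64, 1.51 and 0.211 CPM), and 76, 48 and 197 reads in basophils (1.76, 1.11 and 4.54 CPM). The DN-GMP libraries were close to each other. The Pre-BMP and basophil libraries were spread widely, and Pre-BMP replicate 3 lay below Pro-BMP replicate 3.

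The 3 Pro-BMP libraries were below all DN-GMP and all basophil libraries for Ifitm6. Fitted differences were -6.18 between Pro-BMPs and DN-GMPs (SE 1.38, limma adjusted p = 0.0392), 4.997 between Pre-BMPs and Pro-BMPs (limma adjusted p = 0.0446) and 5.96 between basophils and Pro-BMPs (limma adjusted p = 0.00503). Their size depends on the 0.5 read added to each count. With 5 reads added, the first was -3.93 (limma adjusted p = 0.0389) and the second 2.88 (limma adjusted p = 0.0638). The first call was lost with voom (limma adjusted p = 0.142), with 2 populations fitted alone (0.128) and with no mean-variance trend (0.0741). It was also lost without any one library other than Pro-BMP replicate 3 and Pre-BMP replicates 1 and 3, with adjusted p up to 0.139. The second was lost with voom (limma adjusted p = 0.127), with quantile normalization (0.0668), with 2 populations fitted alone (0.121) and with no trend (0.0708), and without any one library other than Pro-BMP replicate 3 and Pre-BMP replicate 3, with adjusted p up to 0.15. Without Pro-BMP replicate 3 they were -7.84 and 6.65. The remaining comparisons of Ifitm6 passed no threshold, with limma adjusted p of 0.586 to 0.912.

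Markers of mature neutrophils also varied among the Pre-BMP libraries. The summed level of 11 such genes was 301, 138 and 77.7 CPM in Pre-BMP replicates 1, 2 and 3, in the same order as Ifitm6. It was 1005, 875 and 707 CPM in basophil replicates 1, 2 and 3, of which replicate 3 had the most Ifitm6, at 197 reads. Most of the basophil sum came from the chemokine receptor Cxcr2, which averaged 686 CPM, and from Lcn2, at 90.6 CPM. Of the 11 genes 7 were higher and 1 lower in basophils than in DN-GMPs, where 23.2% of all genes were called in each direction. The lower one was S100a8, which averaged 23.0 CPM in basophils and 60.5 CPM in DN-GMPs. In DN-GMPs the sum was 94.9 to 104 CPM. Pro-BMP replicates 1, 2 and 3 had sums of 144, 89.2 and 74.1 CPM, and only replicate 3, with the lowest sum, had Ifitm6 reads. Retnlg, Mmp9 and Ltf were at 0 in DN-GMPs and Mmp9 in Pro-BMPs, and the part of neutrophil RNA in the Ifitm6 values was not tested.

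**Figure D2:**
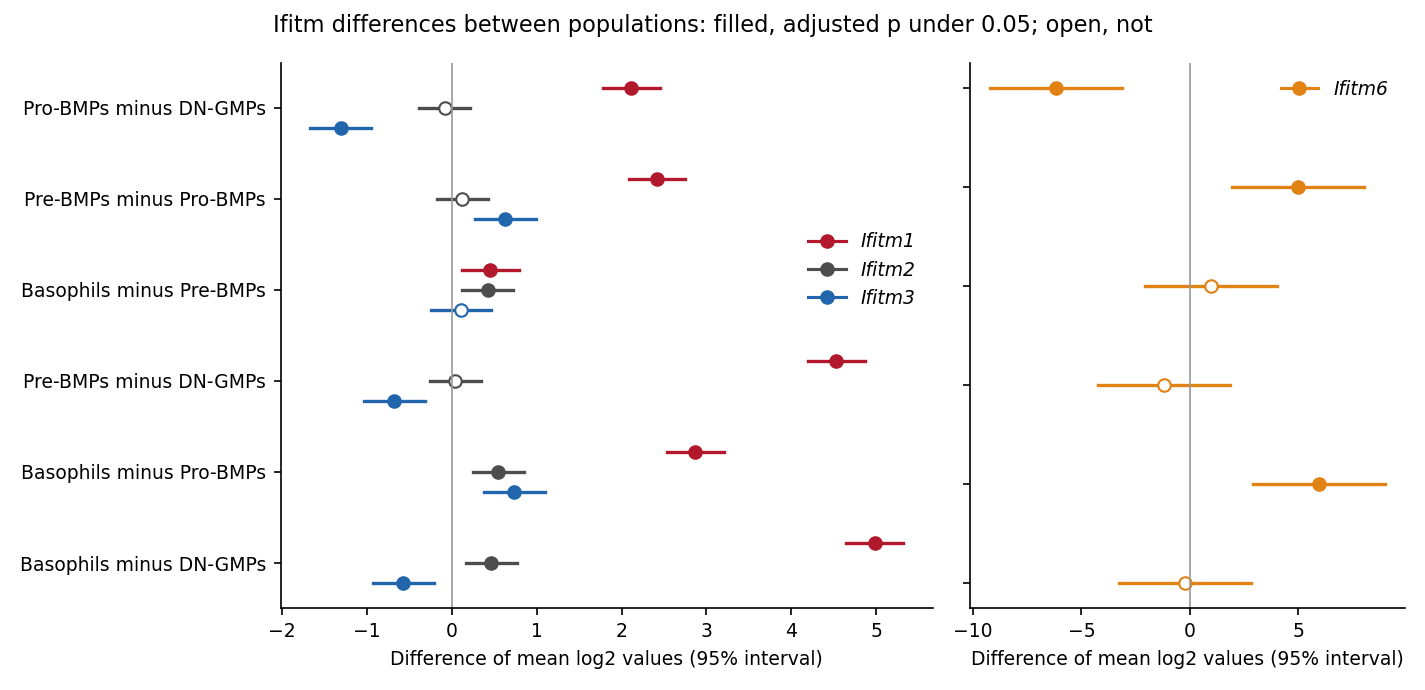
Difference of mean log2 values (horizontal axis) for the 6 comparisons (vertical axis), with 95% intervals from limma and n = 3 libraries per population. Filled points have an adjusted p under 0.05 and open points do not. Ifitm1 lies at 2.11 and Ifitm3 at -1.31 for Pro-BMPs minus DN-GMPs, and the intervals of Ifitm6 in the right panel are several log2 units wide.

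Read together, 1 of the 4 members was higher and 2 were lower in Pro-BMPs than in DN-GMPs, a comparison in which 2.00% of all 14560 genes were called higher and 0.536% lower. In Pre-BMPs 3 of 4 were higher than in Pro-BMPs and 0 were lower, against 4.80% and 4.69% of all genes. With voom, 155 genes were higher and 106 lower in Pro-BMPs than in DN-GMPs, against 291 and 78 with the deposited values. With these populations fitted alone the counts were 153 and 75. In both settings Ifitm1 and Ifitm3 were still called in this comparison and Ifitm6 was not. Between Pre-BMPs and Pro-BMPs the call of Ifitm6 was likewise lost in both settings, and that of Ifitm3 with 2 populations fitted alone. Between basophils and Pre-BMPs 2 members were higher and 0 lower, against 13.9% and 16.5%. Both of these calls, Ifitm1 and Ifitm2, were lost with library totals and with quantile normalization. With library totals 1379 genes were higher and 3813 lower in basophils than in Pre-BMPs, against 2019 and 2408 with the deposited scaling. The remaining comparisons skip a stage. Pre-BMPs had 1 member higher and 1 lower than DN-GMPs, where 12.2% of genes were higher and 9.69% lower. Basophils had 4 higher and 0 lower than Pro-BMPs, where 19.3% were higher and 21.8% lower. They had 2 higher and 1 lower than DN-GMPs, where 23.2% of genes were called in each direction. With library totals, 2094 genes were higher and 4242 lower in basophils than in Pro-BMPs, and 2702 higher and 4276 lower than in DN-GMPs. Comparisons that share a population share its libraries. Over the 4 populations the F-test called all 4 members, with limma adjusted p of 5.89e-09 for Ifitm1, 0.000411 for Ifitm3, 0.00887 for Ifitm6 and 0.0233 for Ifitm2, and it called 46.8% of all genes. The call of Ifitm2 was lost without basophil replicate 2 or 3 (adjusted p = 0.087 and 0.0896) and with either other scaling.

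Levels of different genes were compared per kilobase of the union of their exons, so sums and shares depend on these lengths. The sequence that Ifitm2 shares with other genes, described above, also makes its share uncertain. The summed level of the 4 members was 514 ± 69.0 CPM per kb in DN-GMPs, 449 ± 51.3 for Pro-BMPs, 1212 ± 4.32 for Pre-BMPs and 1596 ± 48.2 in basophils (SD, n = 3 each). Without Ifitm1 it was 477 ± 65.8, 288 ± 9.88, 369 ± 40.1 and 444 ± 19.7 CPM per kb in the same order. Without Ifitm1, the mean sums of Pre-BMPs and basophils were above that of Pro-BMPs and below that of DN-GMPs.

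Ifitm1 made up 7.16% ± 0.584 of the summed level in DN-GMPs, 35.5% ± 5.12 in the Pro-BMPs, 69.6% ± 3.30 in the Pre-BMPs and 72.2% ± 0.532 in basophils. Ifitm3 made up 57.3% ± 4.12, 26.4% ± 2.42, 15.1% ± 1.46 and 12.3% ± 0.473 in that order. Ifitm2 made up 35.0% ± 3.44, 38.1% ± 7.28, 15.2% ± 2.27 and 15.4% ± 0.556. Ifitm6 made up less than 1% in every library. In all 3 DN-GMP libraries the order per kilobase was Ifitm3, Ifitm2, Ifitm1 and Ifitm6. In Pro-BMPs Ifitm2 was the highest in replicates 1 and 2 and Ifitm1 in replicate 3, with shares of 39.8% for Ifitm2 and 35.4% for Ifitm1 in replicate 1. In every Pre-BMP and basophil library Ifitm1 was the highest. Ifitm2 was above Ifitm3 in all 3 basophil libraries, and the order of this pair differed among the Pre-BMP libraries.

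**Figure D3:**
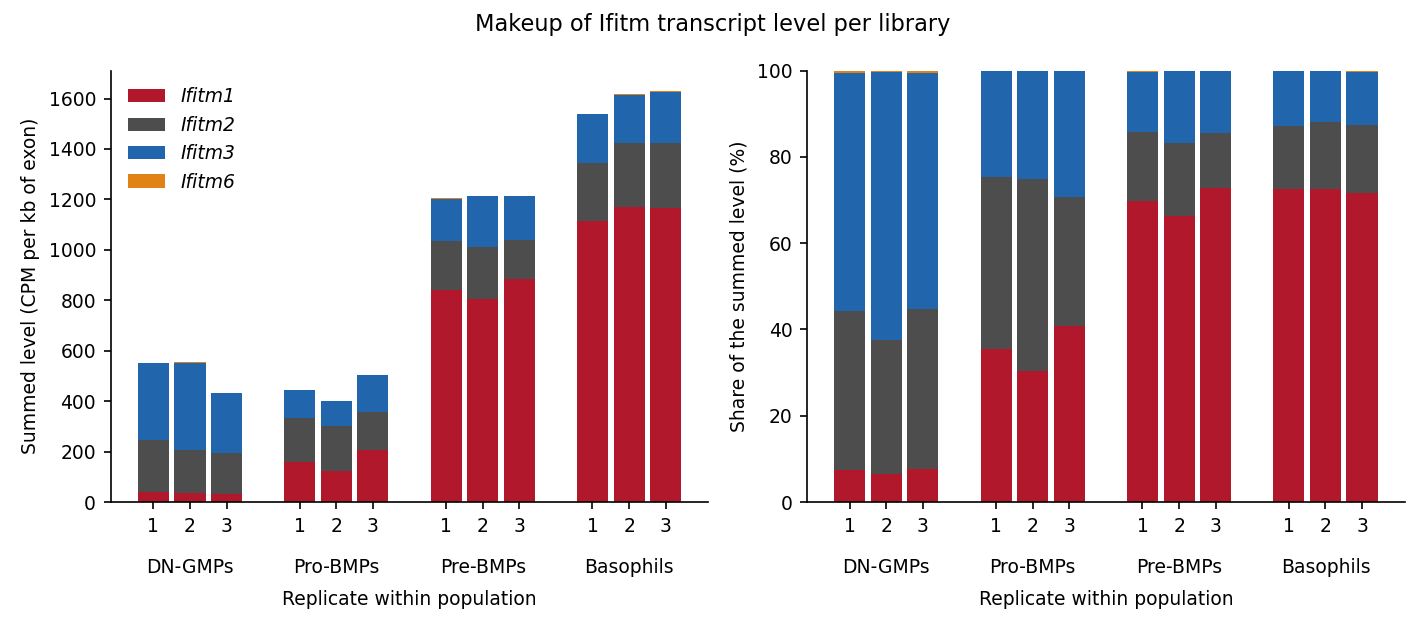
Summed level of the 4 Ifitm genes in CPM per kilobase of exon (left, vertical axis) and the share of each gene in that sum (right, vertical axis, percent), with 1 bar per library grouped by population. Ifitm1 holds 7.16% of the sum in DN-GMPs, 35.5% for Pro-BMPs, 69.6% for Pre-BMPs and 72.2% for basophils, while Ifitm3 holds 57.3% in DN-GMPs and 12.3% in basophils.

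Whether members changed unequally was tested on log2 ratios within each library, which do not depend on the scaling of libraries. The ratio of Ifitm1 over Ifitm3 reads was -2.21, -2.57 and -2.16 in the DN-GMP libraries, 1.21, 0.96 and 1.17 in the Pro-BMP, 3.01, 2.68 and 3.01 in the Pre-BMP and 3.20, 3.31 and 3.21 in the basophil libraries. The libraries of each population stood apart from those of the others. An exact two-sided permutation test over all 369600 arrangements of the 12 libraries gave p = 6.49e-05, the smallest this design allows, and an adjusted p of 0.00039 over 6 pairs of members.

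For Ifitm1 over Ifitm2 the mean log2 ratio was -1.55 in DN-GMPs, 0.65 for Pro-BMPs, 2.95 for Pre-BMPs and 2.97 in basophils (exact permutation test, adjusted p = 0.00175). The Pre-BMP ratios of 2.71 to 3.27 enclosed those of basophils at 2.93 to 3.04. For Ifitm2 over Ifitm3 the means were -0.76, 0.46, -0.05 and 0.27 in the same order (exact permutation test, adjusted p = 0.00506), so the pair with the most alike coding sequences also changed unequally. Ratios over Ifitm6 gave adjusted p of 0.00594 for Ifitm1 and 0.0327 each for Ifitm2 and Ifitm3 (exact permutation tests). The last 2 of these were lost without 1 of 8 libraries, with adjusted p up to 0.0553.

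**Figure D4:**
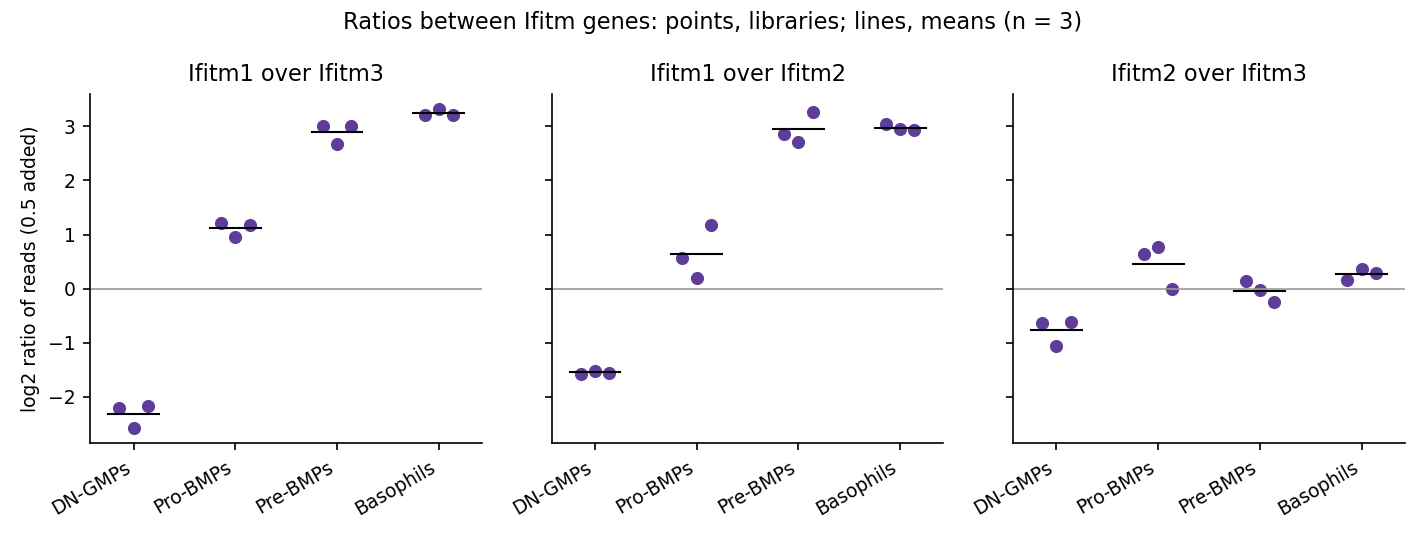
Log2 ratio of reads between pairs of Ifitm genes (vertical axis, 0.5 read added) in the 4 populations (horizontal axis), with 1 point per library and a line at the mean of 3. The ratio of Ifitm1 over Ifitm3 averages -2.31 in DN-GMPs, 1.11 for Pro-BMPs, 2.90 for Pre-BMPs and 3.24 for basophils, Ifitm1 over Ifitm2 levels off at 2.95 and 2.97 in the last 2 stages, and Ifitm2 over Ifitm3 stays between -1.05 and 0.76.

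Genes whose log2 values tracked each member most closely over the 12 libraries were named by Pearson correlation among 8652 genes averaging at least 10 CPM. The points share populations and scaling, and the values are descriptions. For Ifitm1 the closest were Fcer1a, the IgE-binding receptor chain (0.994), Plgrkt, a plasminogen receptor (0.994), P2rx4, an ATP-gated channel (0.994), Ptprs, a receptor tyrosine phosphatase (0.991), and Tent5a, a poly(A) polymerase (0.989). Fcer1a encodes a chain used in sorting, so the gates bear on its steps. It was at 0 in DN-GMPs, where its log2 values rest on the added 0.5 read, and averaged 2862 CPM in basophils. In all, 312 genes correlated above 0.9 with Ifitm1. Plgrkt averaged 38.9, 80.8, 185 and 185 CPM and Ptprs 59.9, 163, 536 and 679 CPM from DN-GMPs through basophils, so their range was narrower than that of Ifitm1.

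For Ifitm2 the closest were Eif1, a translation initiation factor (0.934), Tonsl, a replication fork repair protein, Snapc5, a subunit of the small nuclear RNA transcription complex, Serf2 and Anapc11, a subunit of the anaphase-promoting complex (0.920), and 10 genes passed 0.9. Eif1 averaged 302, 287, 315 and 425 CPM from DN-GMPs through basophils. For Ifitm3 the closest was Rasa4, a Ras GTPase-activating protein (0.885), at 73.5, 12.98, 28.6 and 25.4 CPM. It was followed by Bcl2, which protects cells from death (0.797), Milr1, an inhibitory receptor of mast cells, Rassf4 and the transcription factor Usf1. For Ifitm6 the closest were Gtf2ird2 (0.866), the RNA helicase Dhx8, Exosc10, Brd1 and Dnajc7. No gene passed 0.9 for Ifitm3 or Ifitm6. With Spearman correlation 0 of the 5 names for Ifitm1, 2 for Ifitm2 and 1 each for Ifitm3 and Ifitm6 recurred, so the names depend on the measure.

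A list of 39 interferon-stimulated genes was followed beside the members. Counts and medians of this and the other gene lists were taken with the deposited scaling only. With library totals the median of all genes moved by -0.32 between basophils and Pre-BMPs and by -0.26 between basophils and DN-GMPs. In Pro-BMPs 1 of them was higher than in DN-GMPs and 0 were lower, near the shares over all genes of 2.00% and 0.536%: Ddx58, the cytosolic RNA sensor RIG-I, averaged 31.4 ± 10.6 CPM in Pro-BMPs and 8.26 ± 0.923 CPM in DN-GMPs (log2 difference 1.88, limma adjusted p = 0.0022). In Pre-BMPs 3 were higher than in Pro-BMPs and 0 were lower, where 4.80% and 4.69% of all genes were called: Ly6e, a lipid-anchored surface protein that restricts coronaviruses (0.77), Sp100, a nuclear body protein (0.56), and Ddx58 (1.04). The list medians were 0.18 and 0.13 in these comparisons, beside 0.02 over all genes in both.

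Between basophils and Pre-BMPs, 4 interferon-stimulated genes were higher and 5 lower, with a list median of 0.44 beside -0.10 over all genes. Of all genes, 13.9% were called higher and 16.5% lower in this comparison. Samhd1, which degrades nucleotides needed by retroviruses, was higher by 1.74, Lgals3bp by 1.08 and Sp100 by 0.79. The immunoproteasome subunit Psmb9 was lower (-0.97), as were the guanylate-binding protein Gbp3 (-1.78) and Ifi27 (-0.82). Over the whole span, 16 of the list were higher and 6 lower in basophils than in DN-GMPs, where 23.2% of all genes were called in each direction. The list median was 0.93 beside -0.01 over all genes. Ly6e averaged 2473 CPM in basophils and 1303 CPM in DN-GMPs. Gbp3 averaged 6.59 CPM in basophils and 88.5 CPM in DN-GMPs (log2 difference -3.92). Isg15, a ubiquitin-like protein strongly induced by type I interferon, averaged 9.17 ± 6.998 CPM in basophils and 5.89 ± 3.05 CPM in DN-GMPs.

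**Figure D5:**
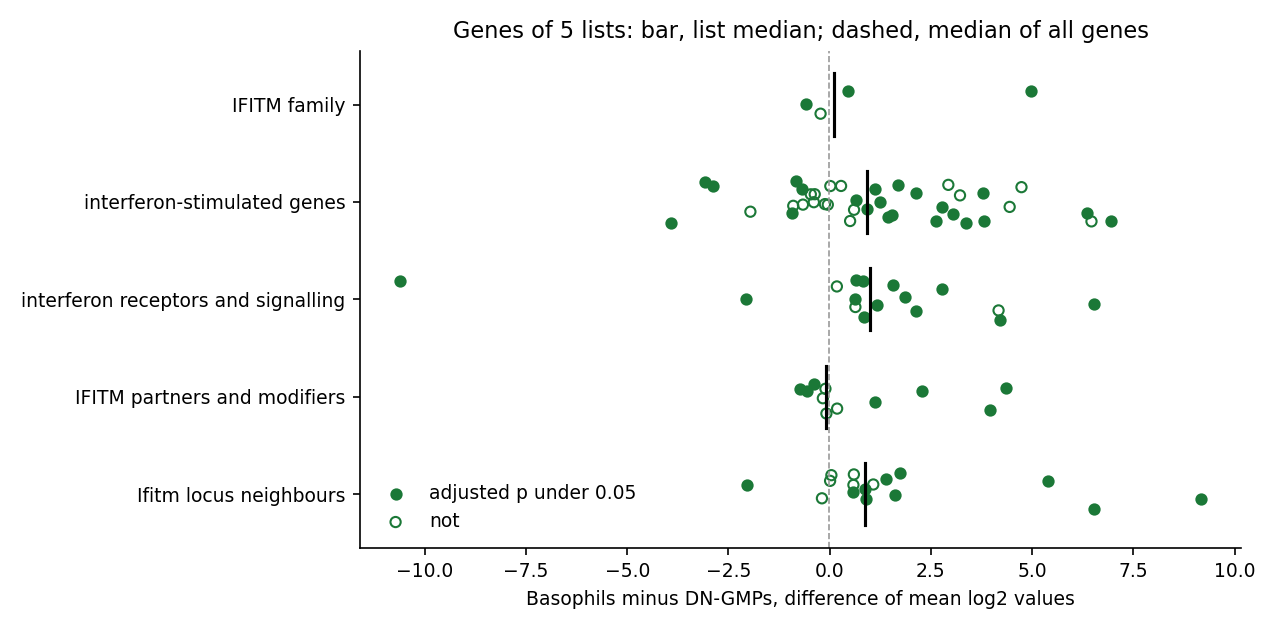
Difference of mean log2 values between basophils and DN-GMPs (horizontal axis) for each gene of 5 lists (vertical axis). Filled points have a limma adjusted p under 0.05, open points do not, bars are list medians and the dashed line is the median of all genes at -0.01. The interferon-stimulated genes lie on both sides of it, with 16 called higher and 6 called lower in basophils. Of all genes, 23.2% were called in each direction.

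Of 16 receptor and signalling genes of the interferon pathway, 2 were higher and 0 lower in Pro-BMPs than in DN-GMPs. The shares over all genes were 2.00% and 0.536%. The 2 were the kinase Jak2 (1.06, limma adjusted p = 0.000844) and the transcription factor Stat2 (1.26, limma adjusted p = 0.0182). In Pre-BMPs 2 were higher than in Pro-BMPs and 0 lower, where 4.80% and 4.69% of all genes were called: Jak2 (1.38) and the kinase Jak1 (0.78). Between basophils and Pre-BMPs 5 were higher and 2 lower, where 13.9% and 16.5% of all genes were called. The higher ones were led by Jak1 (1.17), Jak2 (1.76) and the interferon gamma receptor chain Ifngr2 (1.68). The lower ones were the other receptor chain Ifngr1 (-2.03) and the transcription factor Irf8 (-4.20). The 2 chains of the interferon gamma receptor thus went opposite ways. Ifngr1 averaged 119 ± 11.6 CPM in basophils and 486 ± 73.3 CPM in Pre-BMPs, and Ifngr2 averaged 79.5 ± 8.14 CPM in basophils and 25.1 ± 4.63 CPM in Pre-BMPs. Over the whole span 11 of the 16 were higher and 2 lower in basophils than in DN-GMPs, where 23.2% of all genes were called in each direction. Jak2 averaged 609 ± 67.2 CPM in basophils and 32.9 ± 1.92 CPM in DN-GMPs. Irf8 averaged 0.956 CPM in basophils and 331 CPM in DN-GMPs, and its fitted difference depends on the added 0.5 read.

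Proteins known from human or mouse cells to bind or modify IFITM proteins were followed as a list of 11 genes. In Pro-BMPs 2 of them were higher than in DN-GMPs and 0 lower, where 2.00% and 0.536% of all genes were called. The 2 were the tetraspanin Cd9 (0.96) and the kinase Fyn, which phosphorylates IFITM3 (0.98). In Pre-BMPs 3 were higher than in Pro-BMPs and 1 was lower, where 4.80% and 4.69% of all genes were called. The higher ones were Fyn (1.67), Cd9 (1.10) and the ubiquitin ligase Nedd4, which marks IFITM3 for turnover (0.30). The lower one was the membrane contact protein Vapa (-0.55). Between basophils and Pre-BMPs 5 were higher and 3 lower, where 13.9% and 16.5% of all genes were called. The higher ones were led by Nedd4 (1.72), Cd9 (1.90) and Fyn (1.70). The lower ones were the tetraspanin Cd81, a surface partner of IFITM1 in human lymphocytes (-0.99), the ATPase Vcp (-0.37) and the metalloprotease Zmpste24, which works with IFITM proteins in virus restriction (-0.67). Nedd4 averaged 1503 CPM in basophils and 455 CPM in Pre-BMPs. Cd81 averaged 94.5 CPM in basophils, 187 CPM in Pre-BMPs and 124 CPM in DN-GMPs.

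Genes next to the cluster on chromosome 7 were counted to place the members among their neighbours. Of 16 listed neighbours, 0 were called in either direction between Pro-BMPs and DN-GMPs, where 2.00% of all genes were higher and 0.536% lower. Between Pre-BMPs and Pro-BMPs 0 were called as well, where 4.80% were higher and 4.69% lower. With so few genes these counts are near the shares over all genes. The list medians were 0.10 and 0.20. Between basophils and Pre-BMPs 4 were higher and 1 lower, where 13.9% of all genes were higher and 16.5% lower. Between basophils and DN-GMPs 9 were higher and 1 lower, where 23.2% of all genes were called in each direction. Pkp3, a desmosome protein, averaged 141 CPM in basophils and 4.25 CPM in DN-GMPs (log2 difference 5.39). Rnh1, a ribonuclease inhibitor, averaged 274 CPM in basophils and 152 CPM in DN-GMPs (0.86). Ptdss2, which makes phosphatidylserine, averaged 7.54 CPM in basophils and 30.6 CPM in DN-GMPs (-2.04).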

How the data were processed

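RNA was sequenced from 12 libraries of 4 sorted mouse bone marrow populations. The kits named in the labels' protocols, SmartSeq v4 with Nextera XT, do not mark strand. The authors deposited log2 values per gene and library. Trimmomatic, STAR, HTSeq and deepTools are named without versions, per the submitters' processing notes. The build and annotation they used is not given in the sources used here. The deposited log2 values equal the log2 of whole reads plus 0.5 per 1000000 of a scaled library size, and 100% of the values came back as whole reads at a tolerance of 0.001. The scaled sizes ran from 40263971 to 58553590 reads. The 3 rows that name no gene held 6.65% to 12.6% (no feature), 3.63% to 4.14% (ambiguous) and 8.51% to 12.1% (not unique) of reads and were left out.

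limma (version 3.58.1, R version 4.3.3) was fitted to the deposited log2 values of all 14560 genes with 1 mean per population, a mean-variance trend and no block. Differences between 2 populations were tested two-sided, with Benjamini-Hochberg adjustment over all genes and calls at an adjusted p under 0.05. The F-test over the 4 populations was adjusted in the same way. The steps were tested on simulated data. Limits and intervals cover counting error or the spread between libraries only. Ratios between members were tested by exact permutation of the libraries with the F statistic over the 4 populations, adjusted over the 6 pairs. Lengths and coding sequences came from GENCODE M21, which held 14521 of the listed gene IDs, and were aligned with MAFFT version 7.526. Members and gene lists were chosen with earlier results of these data known. Named genes are the 4 members, the 5 genes closest to each by Pearson correlation, the gated genes, and up to 3 called genes per list, direction and comparison by lowest p. Isg15, Ifitm5, Epx, Csf1r and markers at 0 are named outside this rule, after their values were seen. Prg2 and Epx were named by their level. Alternatives were other scalings, voom weights, 5 added reads, a filter on low values, no trend, 2 populations fitted alone, a replicate block and leaving out each library.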

Additional observations from a re-analysis of the deposited data

How the results depend on the processing

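Over 8 alternatives other than leaving out libraries, 195 values of the main comparisons kept their direction and side of the threshold, 28 lost a call and 3 changed sign. For Ifitm6, Pro-BMPs minus DN-GMPs was -6.08 with voom (limma adjusted p = 0.142), and -6.18 with 2 populations fitted alone (0.128), a replicate block (0.0753) or no trend (0.0741). For Ifitm6, Pre-BMPs minus Pro-BMPs was 4.88 with voom (0.127), 2.88 with 5 reads (0.0638), 4.67 with quantiles (0.0668) and 4.997 with 2 populations alone (0.121), the block (0.0708) or no trend (0.0708). Ifitm3, Pre-BMPs minus Pro-BMPs, was 0.63 with 2 populations alone (0.0546), the block (0.0628) or no trend (0.088). Basophils minus Pre-BMPs was 0.13 for Ifitm1 with totals (0.559), -0.25 with quantiles (0.298), and 0.45 with the block (0.0506) or no trend (0.106). For Ifitm3 it was -0.21 with totals (0.346) and -0.0875 with quantiles (0.737). For Ifitm2 it was 0.10 with totals (0.604), 0.22 with quantiles (0.274), and 0.42 with 2 populations alone (0.061) or no trend (0.0808). For Ifitm2, basophils minus Pro-BMPs was 0.26 with totals (0.161) and 0.36 with quantiles (0.0549), and basophils minus DN-GMPs 0.20 (0.253) and 0.30 (0.0987). Its F-test had adjusted p of 0.386, 0.16 and 0.0666 with totals, quantiles and no trend. The Ifitm3 over Ifitm6 ratio had adjusted p = 0.0575 with 5 reads. Leaving out 1 library gave, for Pro-BMPs minus DN-GMPs, -7.84 to -5.35 for Ifitm6 and -0.15 to 0.0163 for Ifitm2. For Pre-BMPs minus Pro-BMPs it gave 0.52 to 0.79 for Ifitm3 and 4.11 to 6.65 for Ifitm6, and for basophils minus Pre-BMPs 0.42 to 0.49 for Ifitm1, 0.30 to 0.51 for Ifitm2 and -0.18 to 1.85 for Ifitm6. For Pre-BMPs minus DN-GMPs it gave -0.0469 to 0.16 for Ifitm2 (-0.04 without DN-GMP replicate 3 and -0.0035 without Pre-BMP replicate 1). For basophils minus DN-GMPs it gave -0.72 to -0.46 for Ifitm3, 0.39 to 0.56 for Ifitm2 and -0.79 to 0.22 for Ifitm6. Adjusted p ranged from 0.0146 to 0.0896 for the F-test of Ifitm2, from 0.012 to 0.0553 for Ifitm2 over Ifitm6 and from 0.0183 to 0.0553 for Ifitm3 over Ifitm6. Deviations from population means correlated at -0.0729 to 0.102 between same-numbered libraries and at -0.121 to 0.0885 between others. With means of only 3 libraries, these values cannot tell whether a number marks a shared mouse. Genes called numbered 369 for Pro-BMPs minus DN-GMPs, 228 with 2 populations alone and 231 without Pro-BMP replicate 3. They numbered 1382 for Pre-BMPs minus Pro-BMPs, 885 and 778 without Pro-BMP replicates 1 and 2, and 792 without Pre-BMP replicate 3. Counts of reads limit Ifitm6, and the causes of these changes were not tested.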

Other observations

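Outside the cluster members described above, 5 of 12 other IFITM and related dispanin genes were listed in the table, all at low levels. Ifitm7, a further rodent family member, stood at 7.004, 5.23 and 4.197 CPM in DN-GMPs, 2.28, 0.754 and 2.24 CPM in Pro-BMPs, 0.691, 0.901 and 0.632 CPM in Pre-BMPs and 0.185, 0.139 and 0.0923 CPM in basophils. The log2 difference was -5.21 between basophils and DN-GMPs (SE 0.619, limma adjusted p = 4.12e-05), -2.85 between Pre-BMPs and DN-GMPs (limma adjusted p = 0.0072) and -2.35 between basophils and Pre-BMPs (limma adjusted p = 0.0137). The differences between Pro-BMPs and DN-GMPs and between Pre-BMPs and Pro-BMPs passed no threshold (limma adjusted p = 0.208 and 0.331). Basophil counts were 8, 6 and 4 reads.

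Ifitm10 had 84, 101 and 47 reads in basophils and 0, 0 and 26 reads in Pre-BMPs, with 0 to 2 reads in each DN-GMP library and 0 in each Pro-BMP library. Ifitm5, known from bone-forming cells, had 0 to 58 reads per library and was called in no comparison. Tmem91, a related dispanin gene, averaged 0.877 ± 0.732 CPM in basophils and 2.49 ± 0.274 CPM in DN-GMPs (log2 difference -1.82, limma adjusted p = 0.0251).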
